A study of Mus musculus with 2 samples.

Results

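Cytosolic and mitochondrial chaperones were compared between control and senescent AML12 cells as a set of 41 genes, of which 40 were found among the 35275 genes of the count table. The set was listed by name from general knowledge and grouped by role, with earlier results of these data known. Hspa14 was the gene not found under its identifier (ENSMUSG00000109865), and it was not analysed here. AML12 is a non-transformed hepatocyte line made from the liver of a CD-1 mouse (male, aged 3 months) that carries a transforming growth factor alpha transgene. Control cells, titled Young, were left untreated. Senescent cells, titled Old, were exposed to sublethal hydrogen peroxide for a short time each day over several days, with recovery in complete medium containing dexamethasone after each exposure, so that both conditions were grown with this glucocorticoid. Each condition was sequenced as 1 library of RNA pooled from 3 samples. There was therefore no replicate check, p-values were not given, and a ratio describes this pair of libraries rather than the conditions in general.

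Molecular chaperones bind proteins that are not folded, and help them fold, refold or be degraded. In the cytosol, HSP70 proteins work with J proteins, which deliver clients and start ATP hydrolysis, and with nucleotide exchange factors. HSP90 then finishes kinases and steroid receptors, and the CCT ring folds actin and tubulin. Mitochondria have an HSP70, an HSP60 ring with its HSP10 lid and an HSP90 of their own. Heat shock factor 1 switches on the inducible genes of this system when unfolded protein builds up, through a DNA element of inverted GAA units in their promoters. In the liver, chaperones are known for keeping the glucocorticoid receptor ready to bind hormone and for shielding hepatocytes from oxidized protein.

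The control library held 28021941 counted reads and the senescent library 25738075, and the members took 1.32% and 1.59% of them. Reads were scaled by edgeR's TMM method, and each log2 ratio of senescent over control is given with a 95% interval that reflects the error of read counting and no other. A gene was called when its reads in both libraries summed to 10 or more, with an interval without 0 and a log2 ratio past 1.5, the threshold in the study's methods, and calls past 1 (2-fold) are given beside these. The study paired that threshold with a p-value cut, which was not applied here. All 40 members had at least 10 reads, and the lowest count was 82, for Hspa1a in the control library. The hepatocyte markers Hnf4a (8187 and 7705 reads in control and senescent) and Krt18 (40512 and 60941) were present, while Alb was at 32076 and 2917 (log2 ratio -3.23). Apoa1 was also lower, with 2026 and 197 reads (-3.13). Of the 10 hepatocyte markers listed, 3 were lower past 1 (Alb, Apoa1 and Serpina1a) and 0 higher. Intervals lay below 0 for 4 of these markers and above 0 for 5. Reads of markers of other cell types were few, with 21 and 8 for 7 fibroblast genes and 77 and 156 for 5 macrophage genes, and their part in the results was not tested. Among the macrophage genes, Ptprc (27 and 76 reads, log2 ratio 1.68) and Csf1r (15 and 40, log2 ratio 1.58) were higher past 1.5, Cd68 had 34 and 40 reads, Lyz2 had 1 and 0, and Adgre1 was at 0 in both. The study reported p21 and p16 mRNA as increased in senescent cells by RT-qPCR. In these libraries Cdkn1a, the p21 gene, had 6182 and 9869 reads (0.90, interval 0.86 to 0.95). Cdkn2a, whose products include p16, went the other way, with 437 and 149 (-1.32, interval -1.60 to -1.05). Fewer cells of a type and less RNA per cell cannot be told apart in such data.

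Hspa1a and Hspa1b, the genes of stress-inducible HSP70, were the members that rose past 1.5, by 6.27-fold and 5.39-fold. Across all 14383 genes with at least 10 reads, 2.71% were higher past this threshold and 5.6% lower, against 2 and 0 of the 40 members. Past 1 the members called were these genes with Cryab, Hspb1 and Hsp90aa1, thus 5 higher and 0 lower, against 5.09% and 9.98% of all genes. Hsp90aa1 and Hspb1 were close to this line, and with total-count scaling they were at 0.95 and 0.92. With upper-quartile scaling Hspb1 was at 0.99. The members' median log2 ratio was 0.34, or 0.32 without Hspa1a and Hspa1b. It was -0.02 over all genes tested, and 0.08 over the 7804 genes with at least 1000 reads, which 39 of the members also had. Of these 39 members, 1 was higher past 1.5 and 4 past 1, with 0 lower, against 0.871% and 2.97% higher and 1.7% and 4.15% lower of all genes at that depth. The 1 past 1.5 was Hspa1b (266 control and 1227 senescent reads). It reached 1000 reads through the rise itself, so its place among deep genes is no separate evidence. The ratio itself was above 0 for 32 of the 40 members, against 48.9% of all genes tested and 57.2% of those with at least 1000 reads. The interval lay above 0 for 31 members, below 0 for 6 and held 0 for 3. The interval lay above 0 for 34% of all genes tested and below 0 for 34.6%, or 48.5% and 34.2% of those with at least 1000 reads. Such narrow intervals come from deep counts and say nothing about the spread between cultures.

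**Figure D1:**
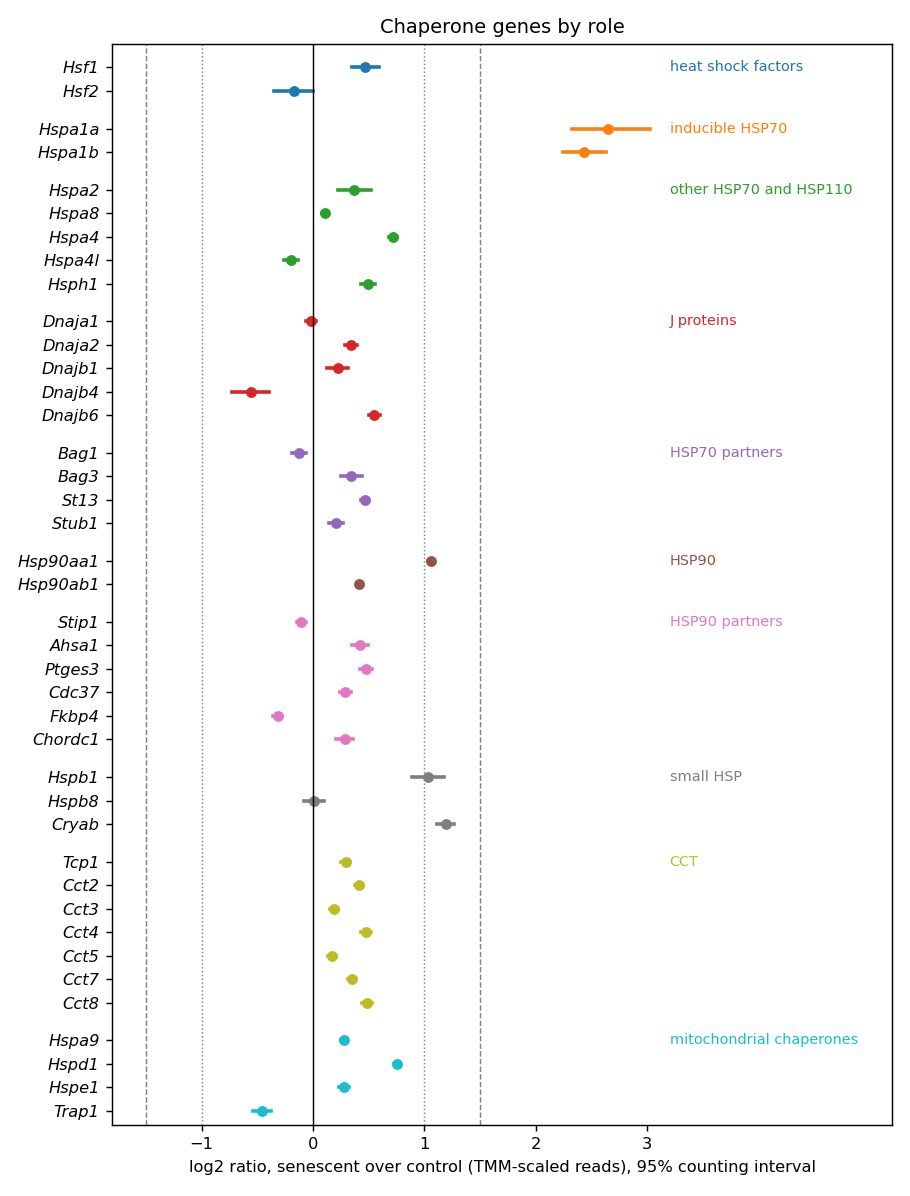
Log2 ratio of senescent over control for each of the 40 members (points) with its 95% counting interval (lines), coloured by role, with dotted lines at 1 and -1 and dashed lines at 1.5 and -1.5. Hspa1a and Hspa1b lie at 2.65 and 2.43, apart from the other 38 members, which lie between -0.56 and 1.19.

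The promoters are shown because Hspa1a and Hspa1b moved alike. RefSeq windows of GRCm38.p6, from 250 bases before to 50 after a start site, were matched by symbol for 33 of the 41 members, and not for Hsf1, Hspa8, Hsp90aa1, Hsp90ab1, Cryab, St13, Cct4 and Hspa9. Hspa1a is shown at chr17:34972157-34972406 and Hspa1b at chr17:34959239-34959488, both on the minus strand and up to the base before the start, where GENCODE M21 annotates no gene. Hspb1, a small HSP gene past 1, is shown at chr5:135887777-135887854 on the plus strand, also outside annotated genes. For contrast with members that moved less, 1 of the 3 matches of Hsph1, the one before its start, is shown at chr5:149636354-149636377 on the minus strand, and that of Hspe1 at chr1:55088056-55088079 on the plus strand, stretches that GENCODE annotates as untranslated exon of Hsph1 and of Hspd1. Capitals mark each run of the letters GAANNTTC or TTCNNGAA, 2 inverted units of a heat shock element, which read the same on both strands.
Hspa1a: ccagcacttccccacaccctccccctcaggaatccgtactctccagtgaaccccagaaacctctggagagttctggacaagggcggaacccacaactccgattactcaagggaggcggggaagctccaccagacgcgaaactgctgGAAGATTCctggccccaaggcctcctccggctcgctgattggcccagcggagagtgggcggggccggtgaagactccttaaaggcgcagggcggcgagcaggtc
Hspa1b: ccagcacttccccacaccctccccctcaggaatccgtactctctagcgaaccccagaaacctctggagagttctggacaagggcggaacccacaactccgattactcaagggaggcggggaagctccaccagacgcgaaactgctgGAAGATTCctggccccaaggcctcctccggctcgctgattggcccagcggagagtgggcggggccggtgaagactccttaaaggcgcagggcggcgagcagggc
Hspb1: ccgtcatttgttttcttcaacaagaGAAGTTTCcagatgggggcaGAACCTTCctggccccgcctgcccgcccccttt
Hsph1: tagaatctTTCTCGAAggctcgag
Hspe1: ccgTTCTAGAACCTTCCGGAAggc

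The Hspa1a and Hspa1b stretches were identical at 247 of 250 bases, and each held its match 104 bases before the start. The stretch shown for Hspe1 held overlapping matches in a row, and it lay in the windows of both mitochondrial genes, Hspd1 and Hspe1, which are transcribed from opposite strands. Of the 33 member genes with a window, 17 (51.5%) held at least 1 match, against 17.0% of 27025 genes with windows of the same length. Runs of 3 units (GAANNTTC followed by NNGAA, or its complement TTCNNGAA followed by NNTTC, each of which contains the shorter runs) were in 5 of 33, namely Hspd1, Hspe1, Hsph1, Chordc1 and Dnajb6, against 0.662% of genes. The run of Hsph1 lies after its start, outside the stretch shown. The members were listed as chaperone genes, and this element is known from the inducible genes of that class. Shares above those of all genes therefore come with the choice of list and are no result of these libraries. Among the members in the count table, the median log2 ratio was 0.29 for the 17 with the 2-unit match and 0.29 for the 15 without it. For the 3-unit run it was 0.49 for the 5 with it and 0.29 for the 27 without it. The members past 1 that had a window, Hspa1a, Hspa1b and Hspb1, all held the 2-unit match but not the 3-unit run. Among members with a window but no 2-unit match, the highest ratio was 0.72, for Hspa4. Hsp90aa1 and Cryab, also past 1, had no window and are in none of these medians. A link between match and ratio was not tested. CCAAT was in 15 of 33 (41.1% of all genes), and TATAAA in 1, Stip1 (15.7% of all genes). These are matches of letters in a short window and no measure of factor binding.

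Heat shock factor 1, the main activator of inducible chaperone genes, is encoded by Hsf1 (ENSMUSG00000022556), which had 1086 control and 1284 senescent reads (log2 ratio 0.47, interval 0.35 to 0.59). Its relative Hsf2, which can pair with it on DNA, had 621 and 470 reads, and its interval of -0.35 to 0.003 held 0. Neither passed 1 in either direction. The activity of these factors depends on trimer formation and phosphorylation, which read counts do not show.

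Hspa1a (ENSMUSG00000091971, chromosome 17 from 34969190 to 34972156 in GENCODE M21 on GRCm38) and Hspa1b (ENSMUSG00000090877, from 34956436 to 34959238) encode practically the same cytosolic HSP70. Hspa1a had 82 control and 443 senescent reads (log2 ratio 2.65, interval 2.32 to 3.02). Hspa1b had 266 and 1227 reads (log2 ratio 2.43, interval 2.24 to 2.63), and took rank 16 by log2 ratio of the 7804 genes with at least 1000 reads. It reached that depth through its senescent count, so the rank is not separate evidence of a rise. The coding sequences differ at 8 of 1926 aligned bases, and 47.1% of all 100-base windows of the Hspa1a transcript are also in Hspa1b, so the split of reads between the pair is uncertain. Summed, which avoids the split, the pair had 348 control and 1670 senescent reads (log2 ratio 2.49, interval 2.32 to 2.66). It was not given whether reads fitting both genes were counted, so the level of the pair may be understated. The ratio of Hspa1a to Hspa1b reads was 0.308 in control and 0.361 in senescent cells, and the interval of this change on the log2 scale (-0.16 to 0.62) held 0. Gm20481, a gene model on the other strand whose exons overlap those of Hspa1a by 564 bases, had 14 and 60 reads, and the use of strand in counting was not given in the sources used here. Hspa1l, the testis relative that is read away from Hspa1a on the other strand, had 4 reads in each library.

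The constitutive HSP70 genes were below 1. Hspa8, which encodes HSC70, the housekeeping member that also uncoats clathrin vesicles, had 39498 control and 36211 senescent reads (log2 ratio 0.10, interval 0.08 to 0.12), and its ratio was -0.003 with total-count scaling. Hspa2, best known from spermatogenesis, had 725 and 799 reads (0.37, interval 0.22 to 0.52). Measured per transcript length as TPM, a share of all transcripts, Hspa8 was at 1035 and 1066, while Hspa1b was at 10.7 and 55.4 and Hspa1a at 3.11 and 18.9. The inducible pair thus made up 1.32% (control) and 6.52% (senescent) of the summed TPM of Hspa1a, Hspa1b and Hspa8. With the longest transcript as length, these shares were 0.970% and 4.87%. Hspa8 also shares sequence with another gene, Gm26825, over 1940 bases at 99.6% identity (1069 control and 886 senescent reads). Its level, and with it these shares, is therefore uncertain as well. Among the HSP110 genes, whose products exchange nucleotide on HSP70 and help to dissolve aggregates, Hspa4 had 10882 and 15292 reads (0.72, interval 0.68 to 0.76). Hsph1, the heat-inducible HSP110 gene, had 3572 and 4288 reads (0.49, interval 0.43 to 0.56), and Hspa4l had 4561 and 3388 (-0.20, interval -0.26 to -0.13). The family therefore held members on either side of 0, and the ratio of Hspa4l to Hspa4 reads went from 0.419 to 0.222.

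J proteins and other partners of HSP70 lay between -0.56 and 0.55. Dnajb1, which encodes HSP40, the classical heat-inducible J protein, had 1899 control and 1890 senescent reads (0.22, interval 0.13 to 0.32). Dnajb6, a suppressor of polyglutamine aggregates, had 5580 and 6970 reads (0.55, interval 0.50 to 0.60). Dnajb4 was at the low end of all 40 members, with 794 and 459 reads (-0.56, interval -0.73 to -0.39). Dnaja2 had 6204 and 6704 reads (0.34), and Dnaja1, whose exons overlap those of Smu1 on the other strand, had 8271 and 6966 (-0.02, interval -0.06 to 0.03). Bag3, the stress-inducible exchange factor that sends clients to autophagy, had 1718 and 1861 reads (0.34, interval 0.25 to 0.44). Its relative Bag1, which links HSP70 to the proteasome, had 4262 and 3329 (-0.13, interval -0.19 to -0.06). St13, which encodes the HSP70-interacting protein Hip, had 9667 and 11402 reads (0.47), and Stub1, which encodes the ubiquitin ligase CHIP, had 4170 and 4108 (0.21). Exons of Stub1 overlap those of Jmjd8 (1899 and 1162 reads) on the other strand by 1084 bases, so its count, like that of Dnaja1, is less certain. None of these genes passed 1 in either direction.

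Hsp90aa1 (ENSMUSG00000021270, chromosome 12 from 110690605 to 110702728), the stress-inducible HSP90 gene, had 20758 control and 36785 senescent reads (log2 ratio 1.06, interval 1.03 to 1.08). Hsp90ab1, the constitutive gene, had the most reads of all members, 70291 and 79895, and a log2 ratio of 0.41 (0.40 to 0.43). Per transcript length, Hsp90aa1 went from 595 to 1185 TPM and Hsp90ab1 from 2641 to 3373, so the inducible form made up 18.4% (control) and 26.0% (senescent) of HSP90 transcripts. The co-chaperones did not follow one direction. Ptges3 (p23, which holds HSP90 closed) had 4718 and 5596 reads (0.48), and Ahsa1, which encodes the activator of its ATPase, had 2781 and 3180 (0.42). Cdc37, which brings kinases, had 7157 and 7470 (0.29), and Chordc1 had 2952 and 3063 (0.28). Below 0 were Fkbp4, which encodes the steroid receptor immunophilin FKBP52, with 13657 and 9349 reads (-0.32, interval -0.36 to -0.28), and Stip1, which encodes the HSP70-HSP90 adaptor HOP, with 12182 and 9659 (-0.11, interval -0.14 to -0.07). Fkbp5, which encodes the competing immunophilin FKBP51 and is not a member, had 15461 and 17519 reads (0.41).

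**Figure D2:**
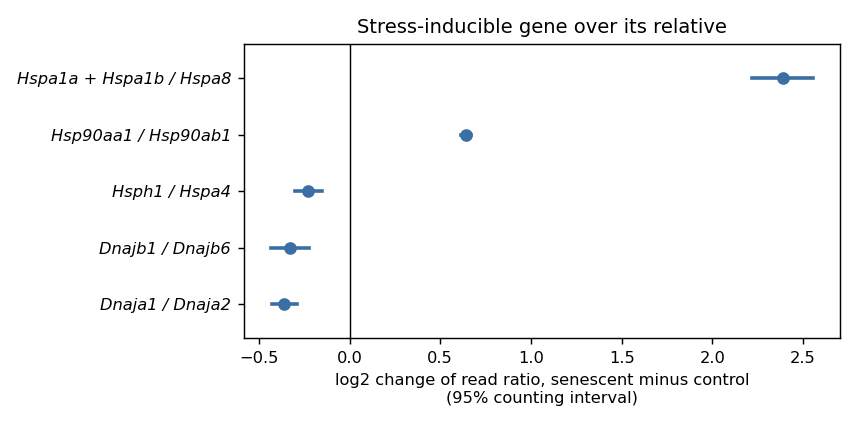
Change in the ratio of reads of a stress-inducible gene to a related gene between the senescent and the control library, on the log2 scale (points) with 95% counting intervals (lines). The pairs lie at 2.39, 0.64, -0.23, -0.33 and -0.36 from top to bottom.

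A ratio of reads within a library does not depend on the library scaling, and 5 pairs of a stress-inducible gene and a related gene were compared in this way. Reads of Hspa1a and Hspa1b over Hspa8 went from 0.00881 to 0.0461, a difference of 2.39 on the log2 scale (2.22 to 2.56). For Hsp90aa1 over Hsp90ab1 the ratio went from 0.295 to 0.460 (0.64, interval 0.61 to 0.67). The other pairs moved in the opposite direction, with Hsph1 over Hspa4 from 0.328 to 0.280 (-0.23, interval -0.30 to -0.15), Dnajb1 over Dnajb6 from 0.340 to 0.271 (-0.33, interval -0.43 to -0.22) and Dnaja1 over Dnaja2 from 1.33 to 1.04 (-0.36, interval -0.43 to -0.29). The inducible genes were therefore not raised together over the relatives chosen here. Hsph1 (0.49) and Dnajb1 (0.22) were themselves above 0, but less so than Hspa4 (0.72) and Dnajb6 (0.55). The Dnaja1 count is less certain, as given above. The intervals cover counting error only, and no test of the pairs was possible with 1 library per condition.

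Small heat shock proteins hold unfolded clients without using ATP, and their genes split. Cryab, which encodes alphaB-crystallin (ENSMUSG00000032060, chromosome 9 from 50751325 to 50756636), had 2254 control and 4387 senescent reads (log2 ratio 1.19, interval 1.12 to 1.26). Hspb1, which encodes HSP25, the mouse form of HSP27 that also binds actin filaments, had 606 and 1057 reads (1.03, interval 0.89 to 1.18). Hspb8, the partner of Bag3 in selective autophagy, had 2292 and 1966 reads, and its interval of -0.08 to 0.10 held 0, with a sign that changed between scalings. Beside Cryab and overlapping its exons on the other strand lies Hspb2, with 22 control and 3 senescent reads (-2.33, interval -5.03 to -0.91). Hspb6, another small HSP gene outside the members, had 538 and 215 reads (-1.09, interval -1.33 to -0.86).

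The CCT ring, or TRiC, is built from different subunits, of which 7 are members. Their log2 ratios lay within 0.31 of one another, from 0.17 to 0.48, with a median of 0.35, and all 7 intervals lay above 0. Cct8 was at the top, with 7751 control and 9241 senescent reads (0.48, interval 0.44 to 0.53). Cct4 had 7664 and 9076 (0.47), Cct2 had 12305 and 13988 (0.41), and Cct7 had 11378 and 12378 (0.35). Tcp1 had 9811 and 10263 (0.29), Cct3 had 10890 and 10593 (0.19), and Cct5 had 14714 and 14132 (0.17, interval 0.14 to 0.20). Cct6a, a subunit gene outside the members, fell inside this range, with 9063 and 10033 reads (0.38, interval 0.34 to 0.42). Exons of Cct8 overlap those of Usp16 (1270 and 1226 reads) on the other strand by 192 bases. Those of Tcp1 and Cct7 also overlap genes on the other strand, so these counts are less certain. Per length, the subunits spanned 189 to 599 TPM in control and 211 to 693 TPM in senescent cells, a ratio of highest to lowest of 3.17 and 3.29. Each subunit thus moved by much less than the subunits differed in level. The mean ratio of Hspa1a and Hspa1b exceeded the median of the CCT subunits by 2.19 on the log2 scale. Prefoldin, which hands actin and tubulin to CCT, did not move as a block, since Pfdn2 had 3021 and 3615 reads (0.49), while Vbp1 had 2005 and 1443 (-0.24) and Pfdn5 had 3096 and 2248 (-0.23).

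**Figure D3:**
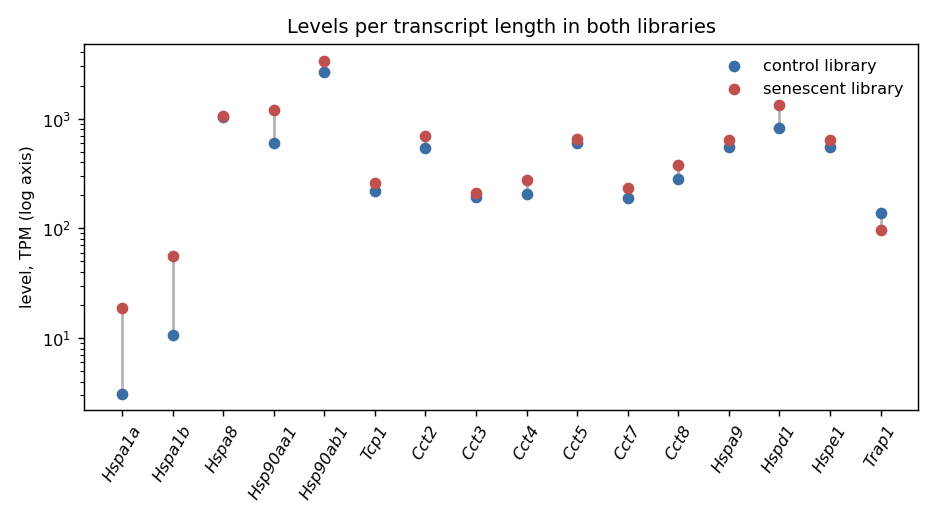
Levels per transcript length (TPM, log axis) of Hspa1a, Hspa1b, Hspa8 and the HSP90, CCT and mitochondrial chaperone members in the control (blue) and senescent (red) library, 1 point per gene and library. Of the 16 genes plotted, Hspa1a and Hspa1b were lowest in both libraries, at 18.9 and 55.4 TPM in senescent cells, and Hsp90ab1 was highest at 3373 TPM. Hspa2, not plotted, was at 30.9 and 38.3 TPM.

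Mitochondrial chaperones spanned 1.21 on the log2 scale, against 0.31 for the CCT subunits. Hspd1, which encodes the HSP60 ring protein (ENSMUSG00000025980, chromosome 1 from 55077835 to 55088243), had 19232 control and 27590 senescent reads (log2 ratio 0.75, interval 0.72 to 0.78). Hspe1, which encodes its HSP10 lid and starts nearby on the other strand, had 7176 and 7413 reads (0.28, interval 0.23 to 0.32). The ratio of Hspd1 to Hspe1 reads accordingly went from 2.68 to 3.72. Exons of the pair overlap by 112 bases on opposite strands. Hspa9, which encodes mortalin, the HSP70 of the matrix that pulls in imported proteins, had 21144 and 21861 reads (0.28, interval 0.25 to 0.31). Trap1, which encodes the mitochondrial HSP90, was the member of this group below 0, with 3145 and 1951 reads (-0.46, interval -0.54 to -0.38). Per length the order was Hspd1, Hspa9, Hspe1 and Trap1 in both libraries, at 820, 553, 549 and 138 TPM in control and 1322, 642, 637 and 96.0 in senescent cells. Hspa9 and Hspe1 changed places with the longest transcript as length, at 591 and 634 TPM in control and 685 and 734 in senescent cells, so their order is not settled. Of 19 other genes of mitochondrial protein quality control, none passed 1, and their median was -0.08. The exchange factor gene Grpel2 was highest, with 847 and 1230 reads (0.77), ahead of the protease gene Afg3l2, with 2476 and 3263 (0.63). The import motor gene Dnajc19 was lowest, with 852 and 418 (-0.80, interval -0.97 to -0.63).

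Other cytosolic chaperone genes, a list of 37 of which 32 had at least 10 reads, had a median of 0.15, with 0 higher and 2 lower past 1. Their highest ratio above 100 reads was that of Ppid, which encodes the HSP90 immunophilin cyclophilin 40, with 2163 and 3089 reads (0.74, interval 0.66 to 0.82). Proteasome subunits, the degradation arm beside these chaperones, had a median of 0.15 over 31 genes and none past 1. They ranged from Psma4, with 6400 and 3869 reads (-0.50), to Psmd12, with 3587 and 4099 (0.42).

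**Figure D4:**
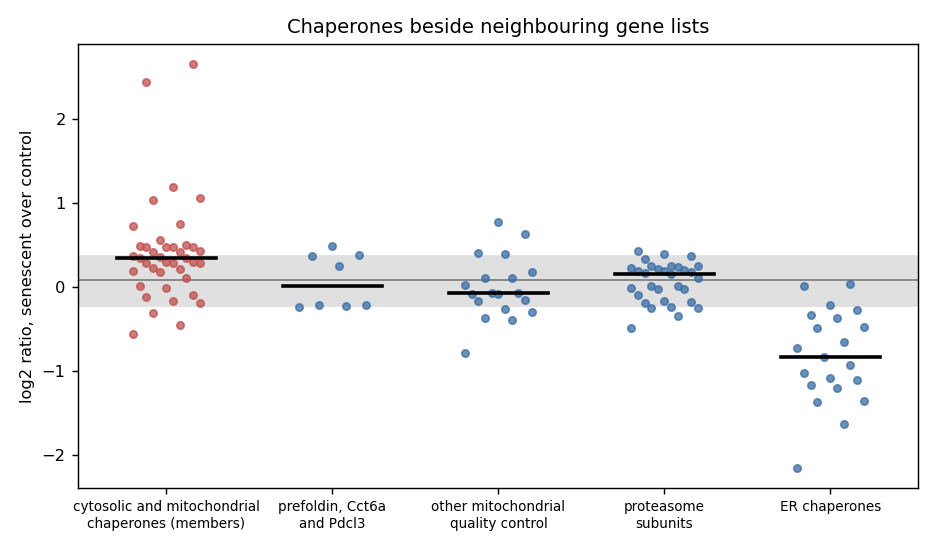
Log2 ratio of senescent over control for each gene (points) of the members and of 4 neighbouring lists, with the list medians (black bars), the median of all genes with at least 1000 reads (grey line) and their quartiles (grey band, -0.24 to 0.36). The medians are 0.34, 0.01, -0.08, 0.15 and -0.83 from left to right.

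Chaperones of the endoplasmic reticulum, which fold secreted and membrane proteins, lay on the other side. Of 21 such genes, 19 had an interval below 0 and 0 above it, with a median of -0.83, 9 lower past 1 and 2 lower past 1.5. The HSP90 of that compartment, Hsp90b1, had 35959 control and 11970 senescent reads (-1.36, interval -1.39 to -1.33), against 1.06 for Hsp90aa1 and -0.46 for mitochondrial Trap1. Among the HSP70 genes, Hspa5 of the endoplasmic reticulum was at -1.63, Hspa8 of the cytosol at 0.10 and Hspa9 of mitochondria at 0.28. Sdf2l1 was lowest, with 4111 and 787 reads (-2.15, interval -2.27 to -2.05). The endoplasmic reticulum list took 352863 control and 158554 senescent reads in all, and the members took 368716 and 407984. With 1 library per condition the difference between the lists could not be tested.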

How the data were processed

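RNA was measured by poly(A)-selected, random-primed RNAseq in 2 pooled libraries, control and senescent. The authors deposited un-normalized counts of reads per Ensembl gene. The submitters' processing notes name STAR and the build mm10, while the counting tool, annotation and use of strand were not given in the sources used here. Columns were assigned by the initials of the sample titles. Symbols, positions and merged exon lengths came from GENCODE M21 on GRCm38, and genes without a symbol took 0.113% of control and 0.109% of senescent reads. Counts were scaled with TMM in edgeR 4.0.16 (factors 1.04 and 0.964) under R 4.3.3. Log2 ratios (prior count 1) and 95% Clopper-Pearson intervals were obtained with scipy 1.17.1, pandas 2.3.3 and numpy 2.4.6 under Python 3.11.15, intervals of read ratios from the normal approximation of the log odds ratio, and plots with matplotlib 3.10.9. Intervals cover counting error only, as reads amplified by PCR were not collapsed to molecules. Shared sequence was searched with blastn 2.17.0 (at least 100 bases at 99% identity), and 16 of 40 members had a match in another gene, antisense overlaps included. The method was tested on data simulated from its own counting model, so that test says nothing about the real spread between cultures. No count test was run in edgeR or DESeq2, because 1 library per condition gives no estimate of the spread between cultures. All members are reported, and of other lists up to 3 genes at each end among those with at least 100 reads could be named. Hspa1l, Fkbp5, Hspb2, Gm20481, Smu1, Jmjd8, Usp16, Hsp90b1 and marker genes were added after their values were seen. The members, lists, thresholds and alternatives were chosen with earlier results of these data known. The alternatives were total-count, DESeq2 1.42.0 and upper-quartile scaling, at least 1 or 100 reads, a prior count of 0.125 or 5, a log2 threshold of 2, intervals widened for an assumed coefficient of variation of 0.1 or 0.4, the sum of Hspa1a and Hspa1b, and the length of the longest transcript.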

Additional observations from a re-analysis of the deposited data

How the results depend on the processing

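The 2 members higher and 0 lower past 1.5 were obtained under every alternative run, including a threshold of 2. Past 1, total-count scaling left 3 members higher in place of 5 (Hspa1a, Hspa1b and Cryab), and an assumed biological coefficient of variation of 0.4 left 2 (Hspa1a and Hspa1b). Upper-quartile scaling left 4, without Hspb1. With total-count scaling the median of the members was 0.24 in place of 0.34, and that of all genes was -0.12 in place of -0.02. The signs of Hspa8 and Hspb8 changed with total-count scaling and that of Hspb8 with upper-quartile scaling, and the 7 CCT subunits stayed between 0.06 and 0.48 under all scalings tried. The excess of Hspa1a and Hspa1b over the CCT median ranged from 2.14 to 2.20. Library scaling all but cancels in this difference, so the range reflects the prior counts and the summing of the pair. With the longest transcript as length, the highest CCT level was 2.77 times the lowest in the control and 2.54 times in the senescent library, and the order of Hspa9 and Hspe1 by level turned in both. No paired analysis was possible because each condition had 1 library, and for the same reason no replicate could be left out.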
